A study of Ovis aries with 36 samples.

Results

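Genes whose enzymes break down proline and the branched-chain amino acids were followed across fetal tissues: ALDH4A1, PRODH, BCAT2, BCKDHA, BCKDHB, BCKDK, IVD, PCCA, MUT and GLUD1. They were taken by name, as every locus whose name field held the symbol, and loci of the same name were summed. Of these 10 genes, 9 had a locus in all 3 tissues, and no locus named GLUD1 was found, so that gene was not analysed here. After summing, 31427 rows were left in the muscle table, 31089 in the subcutaneous and 31852 in the perirenal adipose table. Enough counts for testing were present in 18157, 17745 and 17926 of these rows, with 9, 8 and 9 of the enzymes among them.

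The series compared the transcriptomes of sheep fetuses whose Polypay dams received different energy sources from mid to late gestation. CN dams were limit-fed whole shell corn, DG dams were limit-fed dried corn distillers grains, and HY dams had free access to alfalfa haylage (called hay in the sample labels), with the diets balanced for energy. They were not balanced for other nutrients. By the study's account, daily crude protein intake was lowest in CN dams. Crude fat intake was highest in DG dams and fibre intake in HY dams. Longissimus dorsi muscle and the subcutaneous and perirenal adipose depots of 26 fetuses from 15 dams, all taken in late gestation and all sired by the same ram, were pooled by sex and sequenced. Each tissue and diet had 4 pools, 2 of female and 2 of male fetuses, written below as F1, F2, M1 and M2, which gave 36 libraries. Per the study's description, some pools of a diet share dams, so pools are not fully independent, and CN pool F2 came from a single fetus.

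Proline is degraded in mitochondria in consecutive oxidations: PRODH oxidises proline to pyrroline-5-carboxylate, ALDH4A1 oxidises its open-chain form to glutamate, and GLUD1 can pass glutamate on to 2-oxoglutarate. Leucine, isoleucine and valine are first transaminated by BCAT2, then committed to oxidation by the branched-chain keto acid dehydrogenase, whose decarboxylase is built from BCKDHA and BCKDHB and which the kinase BCKDK switches off. Downstream, IVD acts on the leucine branch, while PCCA, a subunit of propionyl-CoA carboxylase, and MUT, the methylmalonyl-CoA mutase (now also written MMUT), carry carbon from isoleucine and valine into the citrate cycle. Skeletal muscle is known for high branched-chain transamination, and brown fat for strong branched-chain oxidation.

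Coordinates are those of the deposited tables on Oar_v3.1. ALDH4A1 lay on chromosome 2 from 246601951 to 246621836, where the muscle table listed 2 loci with the same name and span, XLOC_015064 with 90.7% of the gene's muscle counts and XLOC_016045 with 9.31%. BCKDHA, on chromosome 14 from 49606097 to 49626428 in muscle, was also listed as 2 loci in muscle (85.2% and 14.8% of its counts) and in subcutaneous fat (98.5% and 1.54%), but as 1 in perirenal fat. The use of strand in counting is not given in the sources used here, so reads of 2 loci with the same span may have been split between them. PRODH was placed on the unassigned scaffold JH922363.1 from 12142 to 25724 in muscle. The BCKDK locus on chromosome 24 ran from 27204927 to 27221495 in muscle and to 27226048 in subcutaneous fat and there also carried the name KAT8, whereas in perirenal fat it ended at 27210713 without KAT8, so BCKDK counts are not from the same stretch in all tissues.

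The libraries held 6705766 to 29625146 counts (median 14406914), with 13749762 to 19387181 in the CN muscle pools, 20370147 to 29625146 in DG and 19071024 to 22831074 in HY. No pair of pools within a group agreed within sampling noise. Levels are given as CPM, the counts scaled to a common normalised library size, and a call means a false discovery rate (FDR) of at most 0.05 by edgeR's quasi-likelihood test, adjusted over all rows of that tissue. Skeletal muscle markers, summed over the 13 listed genes found, reached 122300 to 183500 CPM in muscle and 19.6 to 881 CPM in perirenal fat. In subcutaneous fat, where 12 such rows were found, the sum ranged from 958 to 155700 CPM between pools that carry the same tissue label, reaching the range of muscle itself. The adipocyte hormone gene ADIPOQ lay at 705 to 5650 CPM in subcutaneous and 2730 to 10600 CPM in perirenal fat, and the brown fat gene UCP1 at 10.5 to 134 and 426 to 1170 CPM. The kidney marker UMOD was at 0 in every library and of the adrenal markers CYP17A1 stayed at or below 0.273 CPM and CYP11A1 at or below 0.264 CPM, while STAR was detected in every library, at 13.4 to 20.1 CPM in muscle, 19.9 to 36.6 CPM in subcutaneous and 28.8 to 45.2 CPM in perirenal fat.

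In fetal muscle the clearest diet response of these genes was that of ALDH4A1, which rose about 3-fold under both diets compared with corn. Its CPM in the CN pools was 4.94 in F1, 3.94 in F2, 5.09 in M1 and 4.60 in M2. In DG the pools had 17.7, 13.7, 15.1 and 12.1 CPM, and in HY 18.8, 14.6, 17.8 and 11.6 CPM, in the same order. Every DG and every HY pool thus lay above every CN pool, with a wide gap between the highest CN pool and the lowest pool of the other diets, while DG and HY overlapped. The means were 4.64 ± 0.511 CPM with CN, 14.7 ± 2.38 CPM with DG and 15.7 ± 3.25 CPM with HY (SD, n = 4 pools), from 68 to 85 counts per CN pool and 222 to 409 counts in the other pools. The log2 fold change was 1.66 (SE 0.181, FDR = 0.00299) for DG over CN and 1.76 (SE 0.181, FDR = 0.00226) for HY over CN. In each of these comparisons ALDH4A1 had the smallest p of the 18157 rows tested. The enzymes were chosen with earlier results of these data known, so this rank is given as a description only. Both comparisons use the same CN pools. The HY and DG levels differed by 0.10 on the log2 scale (SE 0.170, FDR = 1), far less than their spread.

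The ALDH4A1 call was kept under all 17 alternatives tried for each comparison, with log2 fold changes of 1.56 to 1.78 for DG and 1.66 to 1.87 for HY. Thinning every muscle library to the same total, which removes the lower depth of the CN pools, gave 1.72 (FDR = 0.0023) and 1.72 (FDR = 0.0024). Taken on its own, XLOC_015064 rose by 1.78 (SE 0.182, FDR = 0.00227) in DG and 1.86 (SE 0.183, FDR = 0.00137) in HY, and the smaller XLOC_016045, with 7 to 44 counts per pool, was at 0.73 (SE 0.390, FDR = 0.374) and 1.04 (SE 0.388, FDR = 0.150). Summed skeletal muscle markers overlapped between diets, at 146800 to 158900 CPM (CN), 122300 to 183500 CPM (DG) and 132200 to 172000 CPM (HY).

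PRODH, which acts immediately before ALDH4A1, was measured at the edge of detection in muscle. The CN pools held 1.86, 0.154, 0.143 and 0.813 CPM (2 to 32 counts), the DG pools 2.04, 0.948, 1.5 and 1.02 CPM (21 to 47 counts) and the HY pools 0.994, 0.706, 0.725 and 0.575 CPM (11 to 21 counts). All HY pools lay inside the CN range, and of the DG pools only F1 lay above it. The fitted DG to CN difference was 0.87 on the log2 scale (SE 0.579, FDR = 0.477) and the HY to CN difference 0.01 (SE 0.605, FDR = 0.996). Neither difference exceeded the spread between pools.

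**Figure D1:**
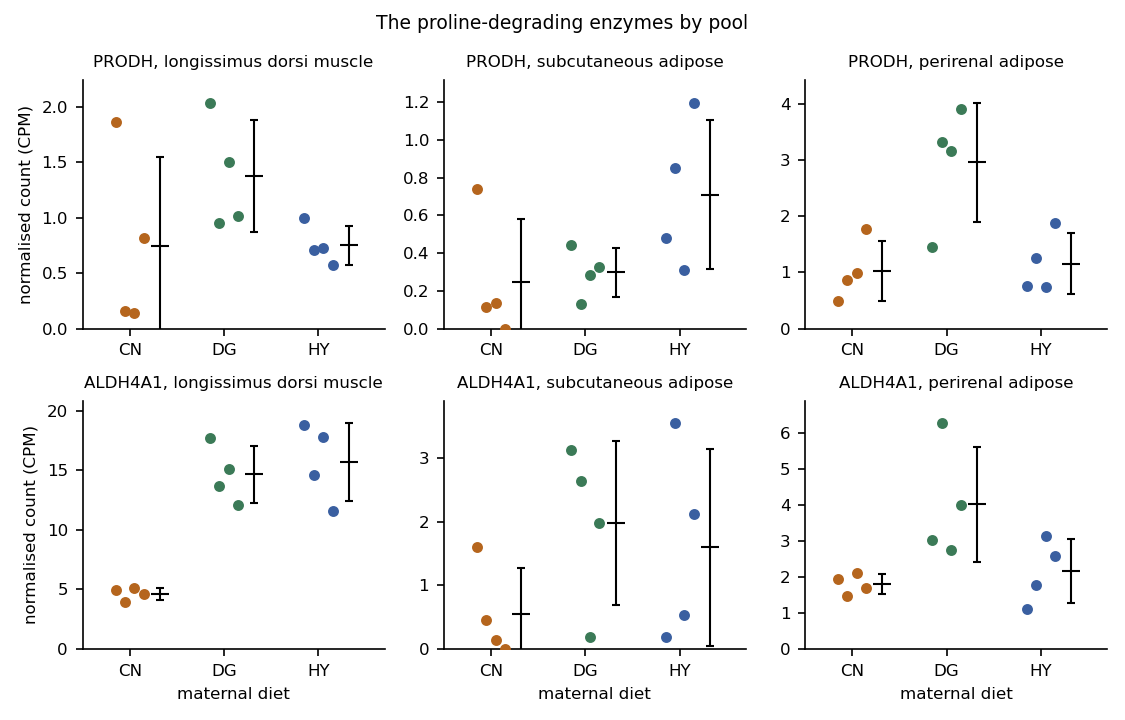
PRODH (top) and ALDH4A1 (bottom) in CPM, 1 point per pool, for CN, DG and HY in each of 3 tissues; the bar beside each group is the mean ± SD of 4 pools, drawn from 0 upward, and each panel has its own axis. In muscle the ALDH4A1 pools of DG and HY (11.6 to 18.8 CPM) stand apart from those of CN (3.94 to 5.09 CPM), in perirenal fat all DG pools and the HY pools M1 and M2 lie above the CN pools, and in subcutaneous fat all diets overlap.

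Of the 9 enzymes tested in muscle, ALDH4A1 was the 1 called in CN vs. DG, where 1.02% of all rows were called, and again the 1 called in CN vs. HY, where 2.95% were. Because the enzymes were chosen with earlier results known, these counts are a description as well. At FDR ≤0.20, the limit that the study also used, 2 of 9 passed in CN vs. DG (7.01% of all rows) and 4 of 9 in CN vs. HY (16.0% of all rows), and all of these were higher than in CN. For 3 enzymes, ALDH4A1, BCKDHA and IVD, no DG pool reached down to the CN range (5.47% of all rows), and for ALDH4A1 and IVD no HY pool did (7.12% of all rows).

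At the transaminase step no difference was detected: BCAT2 averaged 11.1 ± 1.51 CPM with CN, 11.5 ± 0.923 CPM with DG and 10.65 ± 0.388 CPM with HY (SD, n = 4 pools), and the log2 differences from CN were 0.06 and -0.06 (SE 0.131 for both). BCKDHA was at 42.8, 35.2, 34.0 and 43.5 CPM in the CN pools, at 48.0, 53.6, 50.1 and 52.4 CPM in the DG pools and at 62.9, 39.8, 56.6 and 51.7 CPM in the HY pools. The DG pools sat tightly together above all CN pools, and the HY pools mostly did, with F2 inside the CN range. The log2 fold changes were 0.39 (SE 0.135, FDR = 0.185) for DG and 0.44 (SE 0.135, FDR = 0.0918) for HY.

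BCKDHB, the partner subunit, gave log2 differences of -0.28 (SE 0.217, FDR = 0.556) in DG and -0.11 (SE 0.217, FDR = 0.812) in HY, and its pools spanned 27.7 to 42.4 CPM (CN), 17.5 to 38.6 CPM (DG) and 26.7 to 41.2 CPM (HY). The kinase BCKDK, whose muscle locus is shared with KAT8, averaged 66.5 ± 3.095 CPM with CN, 66.3 ± 2.49 CPM with DG and 68.9 ± 5.22 CPM with HY (SD, n = 4 pools). The log2 differences from CN were 0.00 and 0.05 (SE 0.0874 for both), the tightest of the estimates among the 9 enzymes in muscle.

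Among the enzymes that act after the dehydrogenase, IVD and MUT had their highest means in HY. IVD was at 56.7, 72.1, 52.6 and 71.9 CPM in the CN pools, at 72.1, 72.8, 83.4 and 72.8 CPM in the DG pools and at 108.1, 80.8, 88.2 and 72.1 CPM in the HY pools. Neither DG nor HY overlapped with CN, but the lowest DG and HY pools and the highest CN pool are nearly level. DG and HY overlapped with each other. Its log2 fold change was 0.25 (SE 0.138, FDR = 0.386) for DG and 0.46 (SE 0.138, FDR = 0.0847) for HY.

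MUT was at 48.2, 79.2, 50.5 and 55.1 CPM in the CN pools, at 52.3, 71.8, 72.9 and 60.6 CPM in the DG pools and at 99.6, 83.1, 90.2 and 78.7 CPM in the HY pools. The CN pool F2 reached the HY range, and the other 3 CN pools lay well below it. The log2 fold change was 0.59 (SE 0.159, FDR = 0.0600) for HY over CN and 0.14 (SE 0.159, FDR = 0.690) for DG over CN. PCCA, the carboxylase subunit just upstream, was at 0.12 (SE 0.162, FDR = 0.721) and -0.02 (SE 0.162, FDR = 0.976).

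The calls of these downstream enzymes depended on the test and on a single pool. In CN vs. HY, edgeR's likelihood-ratio test called IVD (FDR = 0.0428) and MUT (FDR = 0.0166) in addition to ALDH4A1, DESeq2 called BCKDHA (FDR = 0.0488), IVD (FDR = 0.0422) and MUT (FDR = 0.0203), and the quasi-likelihood test without CN pool F2 called IVD (FDR = 0.0493) and MUT (FDR = 0.00824). CN pool F2, the single-fetus pool, also had the highest summed level of the mitochondrial genes listed below in CN, 6706 CPM, against 4303 to 4639 CPM in the other 3 CN pools. The same sum was 4433 to 5866 CPM in DG and 5597 to 7401 CPM in HY. The part of mitochondrial content in the IVD and MUT values was not tested.

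**Figure D2:**
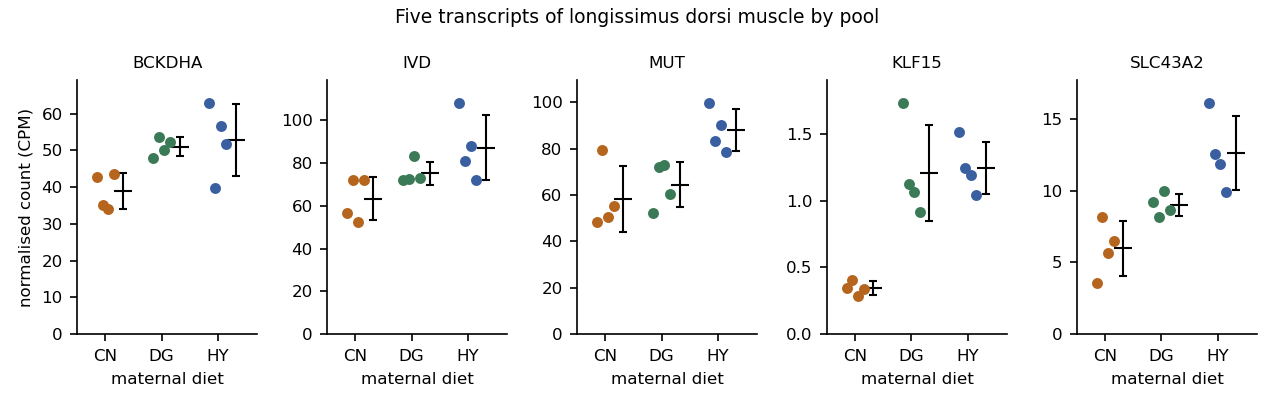
CPM in muscle for BCKDHA, IVD, MUT, KLF15 and SLC43A2, 1 point per pool with mean ± SD of 4 pools beside each diet; each panel has its own axis from 0. KLF15 has CN at 0.287 to 0.409 CPM and DG and HY at 0.916 CPM or more, while BCKDHA, IVD and MUT differ by smaller steps and MUT in DG stays near CN.

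Between DG and HY muscle no row of 18157 was called (0%), with 396 rows at an unadjusted p below 0.05, 3 rows called by edgeR's likelihood-ratio test and 2 by DESeq2, and no enzyme was called by any of these. MUT was higher in every HY than in every DG pool (0.925% of all rows), with a log2 difference of 0.45 (SE 0.158, FDR = 1). The other 8 enzymes overlapped, at -0.86 to 0.21 on the log2 scale.

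Around these enzymes, a list of 30 other genes of branched-chain degradation had 27 members tested in muscle, of which none was called in any comparison. At FDR ≤0.20, 1 passed in CN vs. DG (7.01% of all rows) and 3 in CN vs. HY (16.0% of all rows), all higher than in CN. Of all rows that passed, 980 of 1272 and 1852 of 2897 were higher than in CN. OXCT1, which activates ketone bodies for oxidation, led both comparisons with log2 fold changes of 0.61 (SE 0.186, FDR = 0.135) and 0.67 (SE 0.186, FDR = 0.0675). The median over the 27 was 0.01 for DG and 0.16 for HY, beside a median near 0 over all rows. The study itself reported valine, leucine and isoleucine degradation and propanoate metabolism as enriched in muscle between CN and HY. Most of the differing genes in these pathways were higher in HY. That result came from Cuffdiff p-values and genes at FDR ≤0.20, so it is not the same measure as the calls here. Of 11 tested genes of proline, ornithine, glutamine, glutamate and transaminase metabolism none was called, and the alanine transaminase GPT2 was nearest in HY, at 0.90 (SE 0.267, FDR = 0.0839) over CN.

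Among 6 transcription factors known to act on these pathways, KLF15, an inducer of muscle amino acid catabolism in fasting, was called in both comparisons with CN. Of all rows, 1.02% were called in CN vs. DG and 2.95% in CN vs. HY. KLF15 had 0.349, 0.409, 0.287 and 0.339 CPM in CN (4 to 8 counts), 1.73, 1.13, 1.06 and 0.916 CPM in DG (22 to 40 counts) and 1.52, 1.25, 1.19 and 1.05 CPM in HY (20 to 32 counts). No DG or HY pool overlapped with CN. The CN counts lay below the minimum count of 10 used for testing. KLF15 thus passed the filter through its DG and HY pools, where it was high, and its calls are given as a description only. The log2 fold change was 1.77 (SE 0.310, FDR = 0.0179) for DG and 1.82 (SE 0.311, FDR = 0.0142) for HY, and the call was lost in 5 of 17 alternatives for DG and 3 of 17 for HY, including those without CN pool M1 (FDR = 0.0659 and 0.0536), without CN pool M2 (FDR = 0.0599 and 0.0522), without DG pool M1 for DG (FDR = 0.0599) and without HY pool F1 for HY (FDR = 0.0611). After thinning to equal depth the DG difference had an FDR of 0.0576. The other 5 factors were not called. PPARA was at 0.42 (SE 0.146, FDR = 0.189) and 0.49 (SE 0.146, FDR = 0.0878), and ATF4, which drives amino acid synthesis and uptake genes, at -0.40 (SE 0.136, FDR = 0.185) and -0.34 (SE 0.136, FDR = 0.184).

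Of 9 amino acid carriers tested, 8 had a log2 fold change above 0 in DG over CN and 9 in HY over CN. The median over all rows was near 0 in both. In HY over CN 1 carrier was called, where 2.95% of all rows were called. SLC43A2, a plasma membrane carrier of branched-chain and aromatic amino acids, rose in HY, with 3.55, 8.14, 5.66 and 6.50 CPM in CN and 16.1, 12.6, 11.9 and 9.93 CPM in HY. These groups did not overlap, and the log2 fold change was 1.08 (SE 0.221, FDR = 0.0247), while DG over CN was 0.59 (SE 0.221, FDR = 0.222). The HY call was lost in 5 of 17 alternatives, among them the fits without CN pool M1 (FDR = 0.0756), CN pool M2 (FDR = 0.0741), HY pool F1 (FDR = 0.102) and HY pool F2 (FDR = 0.0759). SLC7A5, the light chain of a leucine exchanger, gave 1.30 (SE 0.364, FDR = 0.0704) in HY over CN.

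In the mitochondrial list, 14 genes were tested in muscle, and 13 had a log2 fold change above 0 in HY over CN (median 0.43), compared with 10 in DG over CN (median 0.08). VDAC1, the outer membrane channel, was the 1 called, at 0.87 (SE 0.220, FDR = 0.0494) in HY over CN, where 2.95% of all rows were called. This call was lost in 12 of 17 alternatives, 7 of them fits without single pools (all but CN pool F2, with FDR 0.0509 to 0.167). In the same comparison, ALDH4A1 was at 1.76, MUT at 0.59, IVD at 0.46 and BCKDHA at 0.44. PCCA was at 0.12, BCKDK at 0.05, PRODH at 0.01, BCAT2 at -0.06 and BCKDHB at -0.11. All these enzymes are mitochondrial as well. The part of mitochondrial content in their values was not tested.

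**Figure D3:**
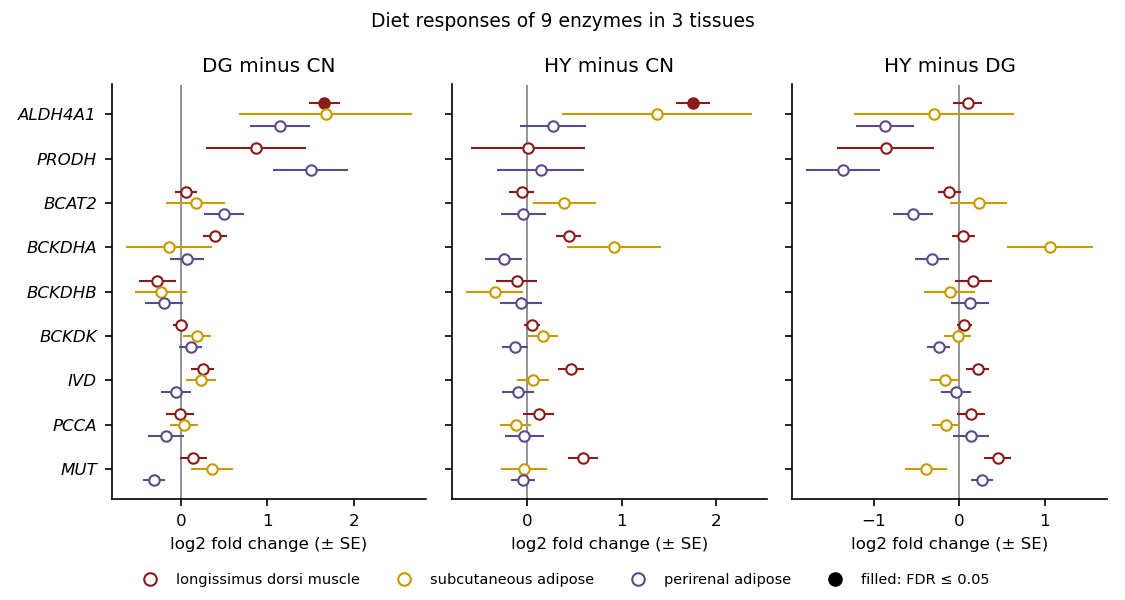
Log2 fold change ± SE of each of the 9 enzymes for DG minus CN, HY minus CN and HY minus DG, with the tissue given by colour; filled points passed FDR ≤0.05, and PRODH has no point in subcutaneous fat because it was not tested there. ALDH4A1 in muscle, at 1.66 and 1.76, is filled in both comparisons with CN, and no other point is filled.

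In subcutaneous adipose tissue none of the 8 enzymes tested was called in any diet comparison, nor was any other of the 17745 rows (0% in CN vs. DG, 0% in CN vs. HY and 0% in DG vs. HY). At an unadjusted p below 0.05 there were 2654, 776 and 3221 rows and no enzyme, and neither edgeR's likelihood-ratio test nor DESeq2 called an enzyme. At FDR ≤0.20, 10.9% of all rows passed in DG vs. HY, again with no enzyme among them. ALDH4A1 was near 0 in several pools, at 1.6, 0.454, 0.136 and 0 CPM in the CN pools, 3.12, 2.64, 0.189 and 1.97 CPM in the DG pools and 0.192, 3.55, 0.542 and 2.11 CPM in the HY pools (0 to 54 counts). The diets overlapped widely. Its fitted log2 differences from CN were 1.68 for DG (SE 1, FDR = 0.417) and 1.38 for HY (SE 1.01, FDR = 0.941), with errors more than 5 times those in muscle.

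Skeletal muscle markers moved with ALDH4A1 in the subcutaneous pools at the ends of the marker range. In the 4 pools with summed skeletal muscle markers of at most 4362 CPM, ALDH4A1 was at 0.136 to 0.542 CPM, whereas in the 2 pools with the highest sums, DG F1 with 155700 and HY F2 with 133700 CPM, it was at 3.12 and 3.55 CPM. Between these ends the order was looser. In CN, ALDH4A1 was at 0.454 CPM beside a marker sum of 71950 CPM in F2 and at 0 beside 12580 CPM in M2. In HY pool M2 it was at 2.11 CPM beside a marker sum of 16140 CPM. With the muscle marker level as a covariate the DG to CN difference was 0.84 (FDR = 0.550), and the HY to CN difference was 1.46 (FDR = 0.469). In bulk tissue, a smaller share of cells of a type and less RNA per cell cannot be told apart.

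**Figure D4:**
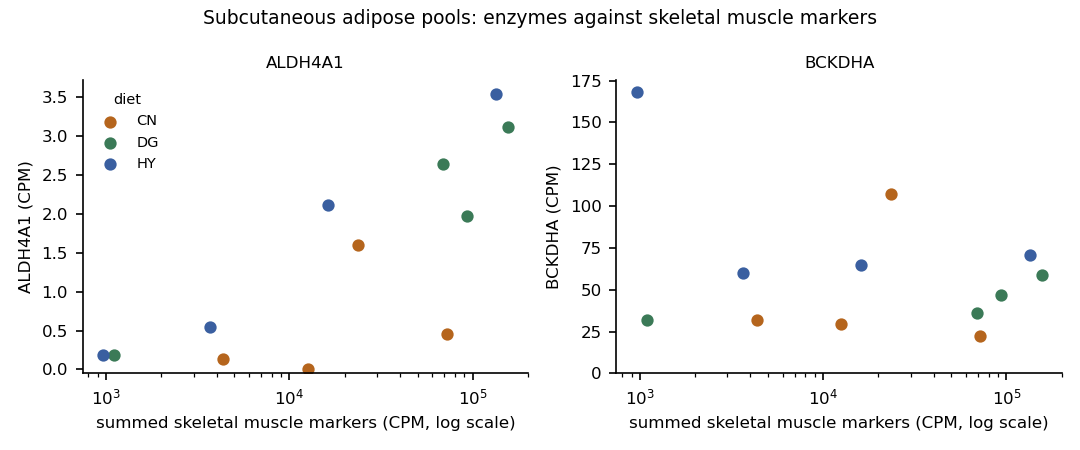
Each point is a subcutaneous pool, with the summed CPM of skeletal muscle markers on a log axis and the CPM of ALDH4A1 (left) or BCKDHA (right); colours are diets. The pools with the fewest muscle markers have ALDH4A1 below 0.6 CPM, and BCKDHA shows no such order, with its highest pool, 168.1 CPM, at the lowest marker sum of 958 CPM.

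BCKDHA, in contrast, was higher in every HY pool than in every DG pool of subcutaneous fat (4.75% of all rows). It was at 107.5, 22.2, 31.9 and 29.6 CPM in the CN pools, at 58.5, 36.4, 31.9 and 47.1 CPM in the DG pools and at 168.1, 70.5, 59.8 and 64.7 CPM in the HY pools. Pool F1 was far above the other pools in both CN and HY, and the remaining HY pools lay just above the highest DG pool. The HY to DG difference was 1.06 on the log2 scale (SE 0.503, FDR = 0.290). Summed brown adipocyte markers were 134 to 185 CPM in HY, 32.2 to 122 CPM in DG and 58.7 to 221 CPM in CN, so HY and DG did not overlap for these markers either; their part in the BCKDHA difference was not tested. PRODH was not tested in this depot, with 0 to 17 counts per pool, and its level spanned 0 to 0.740 CPM (CN), 0.132 to 0.445 CPM (DG) and 0.310 to 1.20 CPM (HY). The other 6 enzymes tested (BCAT2, BCKDHB, BCKDK, IVD, PCCA and MUT) overlapped between all diets.

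Among the lists in subcutaneous fat, no gene was called, and the cytosolic branched-chain transaminase BCAT1 came nearest, averaging 1.25 ± 0.322 CPM with CN, 3.15 ± 0.748 CPM with DG and 1.21 ± 0.258 CPM with HY (SD, n = 4 pools). Its DG pools, at 2.37 to 4.17 CPM, were above all pools of the other diets, and the log2 difference was -1.37 for HY relative to DG (SE 0.310, FDR = 0.107) and 1.32 for DG over CN (SE 0.312, FDR = 0.258). PPARA also had its highest mean in DG, with 8.42 ± 1.71 CPM in DG against 4.25 ± 1.55 in CN and 4.97 ± 0.754 in HY (SD, n = 4 pools; FDR = 0.193 for HY relative to DG). DG also held 3 of the 5 subcutaneous pools with the highest muscle marker sums (68840 CPM or more), and the part of that RNA in these values was not tested.

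In perirenal adipose tissue none of the 9 enzymes was called at FDR ≤0.05 (0% of 17926 rows in CN vs. DG, 0% in CN vs. HY and 0% in DG vs. HY), either by edgeR's quasi-likelihood or likelihood-ratio test or by DESeq2. At FDR ≤0.20, 1.65% of all rows passed in CN vs. DG and no enzyme. At an unadjusted p below 0.05 there were 4 of the 9 enzymes in CN vs. DG, 0 in CN vs. HY and 3 in DG vs. HY. Of all 17926 rows, 1766, 420 and 1786 had such a p. The enzymes nearest to a call were those of proline breakdown.

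ALDH4A1 was at 1.93, 1.48, 2.096 and 1.68 CPM in the perirenal CN pools, at 3.02, 6.26, 2.76 and 4.004 CPM in the DG pools and at 1.12, 1.79, 3.13 and 2.59 CPM in the HY pools (12 to 50 counts). All DG pools were above all CN pools (4.06% of all rows), and the HY pools spanned the CN range and the low end of DG. The log2 difference was 1.15 for DG over CN (SE 0.343, FDR = 0.239), 0.27 for HY over CN (SE 0.352, FDR = 1) and -0.87 for HY relative to DG (SE 0.338, FDR = 0.434). Skeletal muscle markers summed to 881 CPM or less in every perirenal pool, and the DG pool with the most ALDH4A1, F2, had 87.8 CPM of them.

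PRODH was at 0.483, 0.856, 0.993 and 1.77 CPM in the CN pools, at 1.45, 3.32, 3.17 and 3.92 CPM in the DG pools and at 0.749, 1.25, 0.742 and 1.89 CPM in the HY pools (5 to 47 counts). Of the 4 DG pools, 3 were above all CN and HY pools, and F1 lay among them. The log2 difference was 1.5 for DG over CN (SE 0.434, FDR = 0.209) and -1.36 for HY relative to DG (SE 0.432, FDR = 0.358). Over the 17 alternatives, the FDR of the DG to CN difference was between 0.0726 and 0.448 for PRODH and between 0.0974 and 0.478 for ALDH4A1, with all estimates above 0.

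Of the branched-chain enzymes in perirenal fat, BCAT2 averaged 5.12 ± 1.37 CPM with CN, 7.26 ± 0.952 CPM with DG and 4.98 ± 1.09 CPM with HY (SD, n = 4 pools). The log2 difference was 0.50 for DG over CN (SE 0.232, FDR = 0.503) and -0.54 for HY relative to DG (SE 0.232, FDR = 0.476). MUT went the other way, at -0.31 for DG over CN (SE 0.129, FDR = 0.426). The remaining 5 enzymes differed from CN by -0.25 to 0.11 on the log2 scale in either diet. The lists held no called gene in this depot. Of 25 further branched-chain genes tested, 3 were above 0 in DG over CN (median -0.18, beside -0.02 over all rows).

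Whether the diet responses differed between tissues was tested in a joint edgeR fit of the 36 libraries, with pools as a block and 13284 named genes found in all tissues. No difference of responses was called for any of the 9 enzymes in any of the 9 comparisons, 81 differences in all, of which 11 (13.6%) had an unadjusted p below 0.05, beside 9.66% over all genes. The 81 and the 11 both include PRODH differences that involve subcutaneous fat, where PRODH had too few counts to be tested. The share of 13.6% is therefore given as a description only. In the CN vs. DG responses 0% of all genes were called for muscle vs. subcutaneous, 0% for muscle vs. perirenal and 0.0226% for subcutaneous vs. perirenal. In the CN vs. HY responses the shares were 0%, 0% and 0%, and in DG vs. HY 0%, 0% and 6.20%. DESeq2 called 2 differences, PRODH and BCKDHA in the last of these, and none in the other 8 comparisons.

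For ALDH4A1, whose call was made in muscle alone, the DG response in muscle exceeded that in perirenal fat by 0.58 (SE 0.780, FDR = 1) and that in subcutaneous fat by 0.08 (SE 1.02, FDR = 0.995) on the log2 scale. The HY response in muscle exceeded the perirenal one by 1.58 (SE 0.797, FDR = 0.773) and the subcutaneous one by 0.49 (SE 0.916, FDR = 0.979). A response particular to muscle was therefore not shown, with errors near 0.8 or above on these differences. Those errors came with counts of 12 to 50 in perirenal and 0 to 54 in subcutaneous pools.

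The HY relative to DG response was compared between the fat depots as well. BCKDHA had a subcutaneous response 1.32 above the perirenal one (SE 0.457, FDR = 0.0820). It passed with DESeq2 (FDR = 0.0469), where 1463 of 13284 genes passed, and without the CN pools F1 (FDR = 0.0219), where 871 did. For PRODH the fitted difference was 2.64 (SE 0.862), but PRODH had too few counts in subcutaneous fat to be tested there and entered the joint fit through its counts in the other tissues, so its calls in that fit, the DESeq2 call included, are given as a description only. For MUT, the HY to CN response in muscle exceeded that in subcutaneous fat by 0.62 (SE 0.268, FDR = 0.670) and that in perirenal fat by 0.66 (SE 0.268, FDR = 0.698), and for IVD that in perirenal fat by 0.59 (SE 0.251, FDR = 0.708).

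Levels of the same enzyme were also compared between tissues over all diets, in the joint fit and its CPM scale, where 72.1% of all genes were called between muscle and subcutaneous, 80.3% between muscle and perirenal and 66.9% between subcutaneous and perirenal tissue. Of the 9 enzymes, 5, 6 and 4 were called, PRODH being among the 5 and the 4, and with DESeq2 5, 8 and 4. The subcutaneous pools differed widely in summed skeletal muscle markers, from 958 to 155700 CPM. The part of muscle RNA in the subcutaneous levels, and in every difference from them given here and below, was not tested. The median of ALDH4A1 was 17.4 CPM in muscle (5.29 to 24.9 over 12 pools), 1.26 in subcutaneous (0 to 4.19) and 2.43 in perirenal fat (1.103 to 6.40). The perirenal range overlapped the low end of the muscle range. Both depots were lower than muscle, by -3.33 (SE 0.348, FDR = 1.53e-08) for subcutaneous and -2.49 (SE 0.324, FDR = 2.8e-07) for perirenal relative to muscle. The 2 depots are neighbours in this order: their difference of 0.84 (SE 0.362, FDR = 0.0453) was lost in 11 of 16 alternatives.

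PRODH had a median of 1.18 CPM in muscle (0.194 to 2.83), 0.378 in subcutaneous (0 to 1.43) and 1.40 in perirenal fat (0.487 to 4.12). The ranges overlapped, and since PRODH was kept in the fit through muscle and perirenal fat, its differences from subcutaneous fat are not read as a test. Perirenal fat and muscle differed by 0.47 (SE 0.328, FDR = 0.191). BCAT2 was highest in muscle, with a median of 14.4 CPM (12.6 to 17.5) against 7.12 in subcutaneous (3.35 to 10.9) and 6.15 in perirenal fat (3.51 to 8.35). Both depots were below muscle, by -1.099 (SE 0.136, FDR = 1.85e-07) and -1.37 (SE 0.137, FDR = 4.06e-09), and did not differ beyond their spread from each other (-0.27, SE 0.140, FDR = 0.0960).

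BCKDHA had the opposite order, with a median of 208.9 CPM in perirenal fat (140 to 301) against 66.8 in muscle (46.1 to 83.4) and 61.9 in subcutaneous fat (26.8 to 204). The perirenal level was above muscle by 1.72 (SE 0.189, FDR = 2.05e-08) and above subcutaneous fat by 1.71 (SE 0.193, FDR = 7.66e-08), and between the other tissues the difference was 0.01 (SE 0.188, FDR = 0.958). As given above, the number of loci listed for BCKDHA differed between perirenal fat and the other tissues. The part of this in its level differences was not tested. BCKDHB, its partner subunit, did not follow: its medians were 48.4, 48.5 and 57.8 CPM in muscle, subcutaneous and perirenal fat, and no pair was called. BCKDK was at 89.25, 71.1 and 24.98 CPM, with perirenal fat below muscle by -1.89 (SE 0.0727, FDR = 1.26e-16), a difference that cannot be told apart from the shorter perirenal locus without KAT8. IVD was lower in both depots than in muscle, by -0.49 (SE 0.103, FDR = 0.000178) and -0.47 (SE 0.103, FDR = 0.000226), with medians of 98.2, 68.5 and 72.1 CPM. MUT was lower in perirenal fat than in muscle (-0.39, SE 0.109, FDR = 0.00241), and PCCA, at medians of 54.1, 58.1 and 56.1 CPM, was called in no pair.

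**Figure D5:**
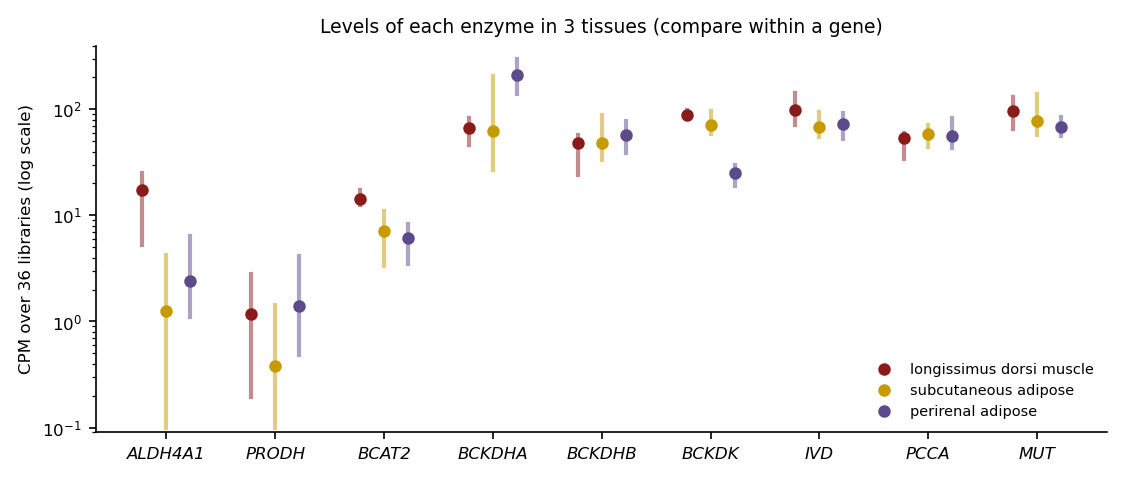
Median (point) and range (bar) over 12 pools of each enzyme's CPM in the joint scale of 36 libraries, by tissue, on a log axis; values of 0 are drawn at the lower edge, and levels are to be compared within a gene because gene length is not accounted for. ALDH4A1 and BCAT2 are highest in muscle (medians 17.4 and 14.4 CPM) and BCKDHA in perirenal fat (208.9 CPM), while BCKDHB and PCCA lie close together in the 3 tissues.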

How the data were processed

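RNA of 36 pools (3 tissues, 3 diets, 4 pools each) was sequenced by the authors following the Illumina mRNA-Seq protocol. Per the submitters' processing notes and the study's methods, reads were aligned to Oar_v3.1 with TopHat2 2.0.4, transcripts were assembled and merged with the reference annotation with Cufflinks 2.1.1, and reads were counted with HTSeq, each tissue with its own locus set. The deposited values are whole-number counts per locus, not normalised. Here, rows of the same name were summed, rows below a minimum count of 10 (filterByExpr, minimum total 15) were removed, and edgeR 4.0.16 (R 4.3.3, TMM scaling, quasi-likelihood F test, all 12 pools of a tissue, Benjamini-Hochberg over all rows) compared diets. SE was taken as the log2 fold change over the square root of F. A joint fit of 36 libraries with pools as a block compared tissues, since the study made 1 set of pools for all tissues. DESeq2 1.42.0, RLE scaling, no filter, a likelihood-ratio test, blocks, thinning to equal depth, separate loci, muscle markers as a covariate and leaving out pools were alternatives. Procedures were tested on simulated data. From the pathway lists, genes at FDR ≤0.05 and up to 3 of smallest p per list and comparison could be named. The enzymes and lists were chosen with earlier results of these data known. The study tested with Cuffdiff; edgeR was used here because raw counts were deposited. Pools share dams, so p-values measure the spread between these pools. No sequences were printed, because no genome was used here.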

Additional observations from a re-analysis of the deposited data

Results flagged for a closer look

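Of 81 groups of 4 pools (9 enzymes, 3 tissues, 3 diets), 7 held a pool that stood apart from the other 3 by Dixon's test. Chance gives about 1 in 20 groups, and groups made of the same pools are not independent, so the 7 are not read as an excess. In muscle the flagged values were IVD in DG pool M1, at 83.4 CPM against 72.1 to 72.8 in the others, PCCA in DG pool F1, at 24.4 CPM against 39.9 to 41.3, and PCCA in HY pool F2, at 35.7 CPM against 41.4 to 42.4. In subcutaneous fat they were BCKDHA in CN pool F1, at 107.5 CPM against 22.2 to 31.9, BCKDHA in HY pool F1, at 168.1 CPM against 59.8 to 70.5, BCAT2 in HY pool F2, at 9.26 CPM against 5.88 to 6.44, and IVD in HY pool F2, at 68.0 CPM against 55.2 to 55.7. HY pool F2 had a skeletal muscle marker sum of 133700 CPM, and CN pool F1 had 23540 CPM. No difference of diet responses between tissues was called for these enzymes.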

How the results depend on the processing

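Under the alternatives, the number of enzymes called changed in 4 of the 21 comparisons by more than 1.5 times, and in no case did a called value change sign. For muscle CN vs. HY it was 1, but 3 with the likelihood-ratio test, 4 with DESeq2 and 1 to 3 across the fits that left out a pool (3 without CN F2). For the DG vs. HY response of subcutaneous against perirenal fat it was 0, but 2 with DESeq2 and 0 to 2 without single pools (2 without CN F1, 1 without DG F1), PRODH, which was not testable in subcutaneous fat alone, being 1 of them each time. Without single pools it was 0 to 1 for the CN vs. HY response of the same depots (BCKDHA without CN F1, 1.99, FDR = 0.0208) and 0 to 1 for the DG vs. HY response of muscle against subcutaneous fat (MUT without DG M1, 1.01, FDR = 0.0341). Why these calls came and went was not tested. Of the single enzymes' diet differences recomputed, 1273 of 1340 kept direction and side of the threshold, 60 uncalled ones changed sign and 7 became calls.

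The background counts moved more. The 186 rows called in muscle CN vs. DG became 615 with the likelihood-ratio test, 683 with DESeq2, 2 with the 8 pools of these diets alone and 9 (without DG M1) to 340 (without CN F2) without single pools. The 536 rows of CN vs. HY became 1145, 1329, 362 and 30 (without HY F1) to 1247 (without CN F2), and 89.6% of them were higher in HY against 78.8% with DESeq2. The rows called in subcutaneous fat were 30 and 252 for CN vs. DG and 265 and 815 for DG vs. HY with these tests, against 0, and 102 for CN vs. DG with the muscle covariate and 0 to 567 (without HY F2) for DG vs. HY without single pools. In perirenal CN vs. DG they were 5 with RLE, 35 without the filter, 189 with the likelihood-ratio test, 238 with DESeq2, 13 with 8 pools, 21 with separate loci, 10 after thinning and 0 to 75 (without DG F1) without single pools. In perirenal DG vs. HY they were 51 and 92 with the 2 other tests. The 823 genes whose DG vs. HY response differed between the fat depots became 515 without the filter, 1463 with DESeq2 and 0 (for example without DG F2) to 1869 (without HY F2) without single pools. For muscle against subcutaneous fat, 0 became 64 without the pool block, 338 with DESeq2 and up to 566 without HY F2.

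With the replicate number as a block, the enzymes called in muscle stayed at 1 in CN vs. DG (ALDH4A1, 1.65, FDR = 0.00398) and 1 in CN vs. HY (1.74, FDR = 0.00236), SLC43A2 (FDR = 0.0570) and VDAC1 (FDR = 0.0549) lost their calls in CN vs. HY, and all rows called there were 270. In subcutaneous DG vs. HY the block gave 281 rows and no enzyme. Pools with the same label in different diets share a number and the sex of the fetuses, so the block also takes out sex, and their mean correlation was -0.0444 in muscle, 0.191 in subcutaneous and 0.0547 in perirenal tissue. Without the pool block of the joint fit, ALDH4A1 was no longer called between the depots (0.72, FDR = 0.0614). PRODH was measured with 47 counts or fewer per pool in all tissues, and ALDH4A1 in fat with 54 or fewer.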
